A study of Rattus norvegicus with 48 samples.

Results

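Motor cortex of control-lineage rats was compared between animals restrained daily in adolescence and animals left unrestrained, long after the restraint had ended. The samples were chosen by their labelled tissue, lineage and treatment: 3 stressed control arrays (St-Con) and 3 non-stressed control arrays (NSt-Con) of primary and secondary motor cortex, 6 of the 48 arrays of the series. The rats were male Sprague-Dawley of the F3 generation. Their F0 ancestors had received DMSO, the vehicle, by intraperitoneal injection on embryonic days 8 to 14 of gestation. St-Con rats were held in folded wire mesh for 6 hours a day over 21 days, from postnatal day 23 to 43, and NSt-Con rats were not. Every rat lived with a cage mate of the vinclozolin lineage, whose F0 ancestors had received 100 mg/kg/day of that fungicide. Brains were taken at 120 days of age as 2 mm punches, and each array measured RNA pooled from 4 rats. The replicates of St-Con (dyad groups 4 to 6) and of NSt-Con (dyad groups 1 to 3) are therefore pools of different animals. Stressed (St-Vin) and non-stressed (NSt-Vin) vinclozolin-lineage arrays of motor cortex and the control-lineage arrays of basolateral amygdala, CA1 and CA3 were used where the same difference could be measured elsewhere.

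Restraint activates the hypothalamic-pituitary-adrenal axis, which ends in the release of glucocorticoids from the adrenal cortex. Glucocorticoids enter the brain and act through the receptors encoded by Nr3c1 and Nr3c2, which switch genes such as Fkbp5, Tsc22d3, Sgk1 and Per1. Motor cortex is an agranular part of the neocortex whose large deep-layer neurons project to the brainstem and spinal cord. The brains were sampled in adulthood, so the arrays describe what differed weeks after the last restraint session.

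The tissue label was checked against marker genes, with mixed results. Of the 11 cortical layer markers only Fezf2, a transcription factor of deep-layer projection neurons, had its highest median log2 signal in motor cortex (8.58, against 7.74 to 8.46 in the other areas), and 6 had their lowest there, such as Rasgrf2, a marker of upper layers, at 8.20 against 8.95 to 9.97. These markers did not set motor cortex apart from the other areas. Of 19 inhibitory neuron markers 2 were highest in motor cortex and 10 lowest, and Pvalb, the calcium buffer of fast-spiking interneurons, was one of the 2, at 10.00 against 8.83 to 9.67. Of 9 hippocampal markers 8 had their lowest median in motor cortex, with Prox1, of dentate granule cells, at 5.66 against 9.10 in CA3, while Trpc4 was at 7.92 against 7.41 in the amygdala. Of 14 striatal markers 11 were lowest there, with the dopamine receptor gene Drd2 at 5.51 against 7.72 in the amygdala, while Foxp1, which cortical neurons express too, was highest there at 9.21. Lowest medians in motor cortex were common in other lists too, such as 13 of 19 choroid plexus markers. These counts have no share over all probe sets beside them. Among the 6 arrays the lowest pairwise correlation was 0.991. One array stood apart. NSt-Con 1 carried choroid plexus transcripts far above the rest, as described with the cell type markers. The count of calls is given with and without it, as are the values of some genes and lists. All motor cortex RNA was prepared on 1 day, but NSt-Con arrays were scanned on day 1 and St-Con arrays on day 2, so scan day and stress cannot be told apart within the control lineage.

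St-Con motor cortex differed from NSt-Con motor cortex by small amounts in a limited number of transcripts. With limma and Benjamini-Hochberg adjustment, 174 of 27342 probe sets (0.636%) passed an adjusted p of 0.05, 76 of them higher (0.278%) and 98 lower (0.358%) in St-Con. Without adjustment, 5014 probe sets (18.3%) were below a p of 0.05, 2205 higher and 2809 lower. After quantile normalization, 216 of 390 calls were higher (55.4%, against 43.7% as reported). The differences of the 174 ranged in size from 0.24 to 0.99 on the log2 scale, with a median of 0.37, and 34 reached 0.5. The St-Con arrays did not overlap the NSt-Con arrays in any of the 174, a property that 6652 of all probe sets (24.3%) also had. Among the 174, 118 (67.8%) had mean signals below the median of all probe sets and 69 (39.7%) in the lowest 30%, and the deposited values carry no detection calls. The annotation gave 1 gene symbol to 74 of them, 27 higher and 47 lower, for 73 genes; another 97 had none and 3 had several. Without NSt-Con 1 limma called 19 probe sets (0.0695%), 17 of them among the 174. Of the 19, 5 had 1 symbol: Or6c219, RT1-CE2, Ly6i, Or4k50 and Rwdd2a. No other gene named below was called without NSt-Con 1. The median size of the 174 was then 0.375, and with separate groups their direction could not change. With scan day as a block, limma called 0, with 2027 (7.41%) at an unadjusted p under 0.05. That block rests on the single contrast of NSt-Vin 3 with NSt-Vin 1. All 174 kept their direction there, with a median size of 0.397. Removing NSt-Con 3 or St-Con 1 likewise left 0 called (4517 and 3790 unadjusted), so no gene below was called in more than 9 of the 11 fits that each lacked 1 array.

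**Figure D1:**
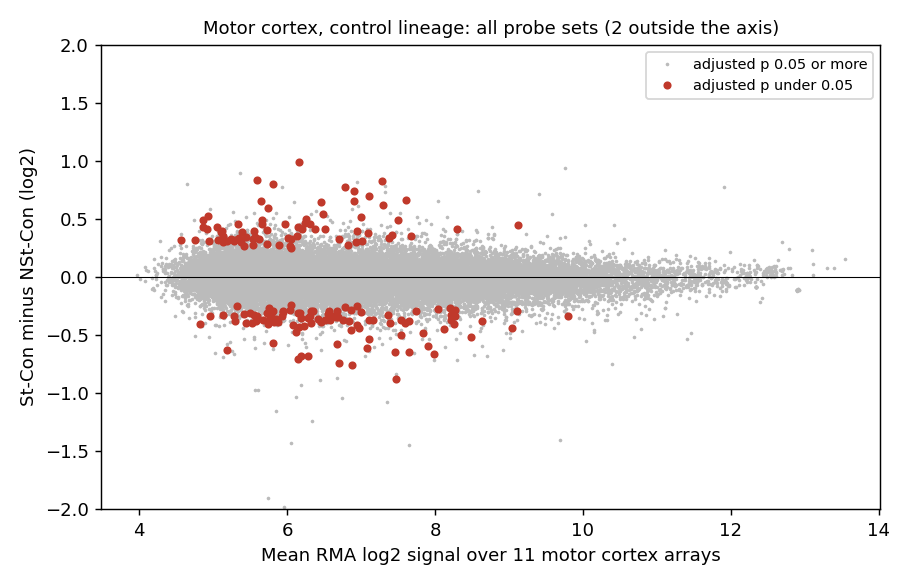
Each point is a probe set, with its mean RMA log2 signal over the 11 motor cortex arrays on the horizontal axis and its St-Con minus NSt-Con log2 difference on the vertical axis. The 174 called probe sets, in red, are mostly at low to middle levels, and 2 uncalled choroid plexus probe sets, Ttr and Kcnj13, lie outside the axis.

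Rnf135 and RT1-CE2 had the largest positive differences among called genes outside the olfactory receptors. Rnf135, an E3 ubiquitin ligase that activates the viral RNA sensor RIG-I, had log2 signals of 7.01, 7.10 and 7.07 in St-Con, against 6.23, 6.04 and 6.59 in NSt-Con. The 3 St-Con pools were almost alike and the NSt-Con pools were all lower and more spread. It was 1.71-fold higher (log2 difference 0.77 ± 0.15 SE, limma adjusted p = 0.0452), and was called in 2 of the 11 fits lacking an array. St-Vin and NSt-Vin pools lay mostly near the St-Con level, at 7.03, 7.13 and 6.57 in St-Vin and 6.96 and 6.80 in NSt-Vin. RT1-CE2, a rat MHC class I gene, which presents peptides on the cell surface, was at 6.13, 5.96 and 6.04 in St-Con and 5.61, 5.36 and 5.39 in NSt-Con. It was higher by 0.59 ± 0.08 (adjusted p = 0.022) and remained so without NSt-Con 1 (0.67, adjusted p = 0.0333). A second class I gene went the other way. RT1-S2, a class Ib gene of the same complex, was at 5.32, 5.56 and 5.42 in St-Con and 6.08, 5.87 and 6.06 in NSt-Con (-0.57 ± 0.11, adjusted p = 0.0463). Rat class I genes are near copies of one another and probe sets may pick up several of them, so neither value can be tied to 1 locus with certainty. The list of 19 further probe sets for class I genes and antigen processing had 0 called by limma, against 0.490% of all probe sets with 1 symbol. At an unadjusted p under 0.05 were 1 higher and 4 lower (26.3%, against 17.1%). The median difference was -0.05, against -0.01 over all probe sets with 1 symbol.

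Of 33 histone probe sets 2 were called (6.06%, against 0.490% of all probe sets with 1 symbol), and both were higher in St-Con. H4c14, which encodes the core histone H4, gave 9.44, 9.31 and 9.25 in St-Con and 8.95, 8.90 and 8.80 in NSt-Con. The lowest St-Con pool was above the highest NSt-Con pool, and the level was 1.37-fold higher in St-Con (0.45 ± 0.07, adjusted p = 0.0289). H2bc18, which encodes a histone H2B, gave 7.82, 7.83 and 7.90 in St-Con and 7.54, 7.47 and 7.48 in NSt-Con, a gap between the groups several times wider than either group's spread (0.35 ± 0.06, adjusted p = 0.0296). Each was called in 5 of the 11 fits lacking an array, and without NSt-Con 1 their adjusted p values were 0.0578 and 0.0613. Neither passed in the vinclozolin lineage, with differences of -0.01 for H4c14 and 0.00 for H2bc18. The other histone probe sets were mixed. Of the 33, 17 were higher and 16 lower, with a median of 0.02, and 12 (36.4%, 8 higher and 4 lower) were below an unadjusted p of 0.05, against 17.1% of all probe sets with 1 symbol. H2bc12 (-0.52 ± 0.13, adjusted p = 0.0786) and H2az1 (-0.45 ± 0.12, adjusted p = 0.0928), the gene of the variant H2A.Z, had large negative differences that missed the threshold. Histone genes of a class are near copies too, so these probe sets may read more than 1 gene.

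Promoter windows are shown for H2bc18, one of the histone genes that rose, and for Igfbp6, which had the most negative difference among called genes with 1 symbol. Both come from the RefSeq annotation of assembly GRCr8, run from 250 bases before to 50 bases after the gene start and lie on the plus strand. H2bc18 is at chr2:186526947-186527246 and Igfbp6 at chr7:135154669-135154968. Capitals mark 4 searched motifs on either strand: AGAACA, a half-site of the glucocorticoid receptor; CCAAT, or its reverse complement ATTGG; ATTTGCAT, the octamer known from histone H2B promoters; and TATAAA.
H2bc18: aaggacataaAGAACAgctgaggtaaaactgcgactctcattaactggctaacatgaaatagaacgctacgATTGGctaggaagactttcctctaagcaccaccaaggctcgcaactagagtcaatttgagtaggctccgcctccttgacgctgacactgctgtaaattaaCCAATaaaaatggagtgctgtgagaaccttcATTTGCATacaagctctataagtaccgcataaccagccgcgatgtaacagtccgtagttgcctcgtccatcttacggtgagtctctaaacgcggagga
Igfbp6: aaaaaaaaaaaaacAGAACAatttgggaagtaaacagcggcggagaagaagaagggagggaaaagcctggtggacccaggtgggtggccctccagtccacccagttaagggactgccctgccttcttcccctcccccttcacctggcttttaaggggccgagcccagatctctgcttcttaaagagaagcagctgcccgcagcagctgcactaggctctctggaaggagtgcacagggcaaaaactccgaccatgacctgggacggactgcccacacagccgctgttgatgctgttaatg
The H2bc18 window held the octamer 48 bases and a CCAAT box 79 bases before the start, a reversed CCAAT box farther upstream, and AGAACA 240 bases before it. The Igfbp6 window held AGAACA 236 bases before the start. Of 27457 promoters of this length, 1.64% held the octamer, 37.7% CCAAT, 20.1% AGAACA and 14.3% TATAAA. Of the 73 called genes 58 had a promoter in the table, and 2 held the octamer, 24 CCAAT, 9 AGAACA and 11 TATAAA. These matches describe letters in a window and nothing about binding.

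Agt, which encodes angiotensinogen, the precursor of the angiotensin peptides and in brain a product of astrocytes, was higher in St-Con. Its signals were 8.53, 8.54 and 8.45 in St-Con and 7.99, 8.07 and 8.21 in NSt-Con, with the vinclozolin-lineage pools between them for the most part (8.20, 8.43 and 8.31 in St-Vin, 8.30 and 8.23 in NSt-Vin). The difference was 0.42 ± 0.07 (1.33-fold, adjusted p = 0.0404). Of the 12 astrocyte markers 10 were higher, with a median of 0.11 against -0.01 over all probe sets with 1 symbol, but Agt was the one called. Gjb6, a gap junction protein of astrocytes, came next by p (0.23, adjusted p = 0.198), Aldoc, their aldolase, was at 0.13, and Gfap, the intermediate filament of reactive astrocytes, was at -0.26 (adjusted p = 0.556). In bulk punches, a change in the number of cells of a type and a change in RNA per cell cannot be told apart.

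The remaining named genes that rose have varied roles. Ly6i, of the Ly6 family of membrane-anchored proteins, was at 5.03, 5.08 and 4.99 in St-Con and 4.58, 4.67 and 4.57 in NSt-Con. The gap of 0.32 between the groups was wide beside the spread within each, and the call held in 8 of 11 fits lacking an array (0.43 ± 0.05, adjusted p = 0.022). Its signal was weak, ranking above only 2.98% of probe sets. Pomp, the chaperone of proteasome assembly, was at 7.51, 7.71 and 7.58 in St-Con and 7.26, 7.22 and 7.23 in NSt-Con (0.36 ± 0.07, adjusted p = 0.0498). Afap1, an adaptor that links Src to actin filaments, rose by 0.36 ± 0.06 (adjusted p = 0.0414), and Akr1b7, an aldo-keto reductase, by 0.39 ± 0.08 (adjusted p = 0.0463). All of these groups were separate, and none of the 4 genes passed in the vinclozolin lineage or in another area.

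Igfbp6, an inhibitor of insulin-like growth factor II that is abundant in meninges, had the most negative difference among called genes with 1 symbol. It was at 7.86, 8.07 and 7.96 in St-Con and 8.81, 8.50 and 8.56 in NSt-Con. The highest St-Con pool was below the lowest NSt-Con pool by more than the spread within either group, and the 1.58-fold lower level (-0.66 ± 0.13, adjusted p = 0.0463) became -0.57 without NSt-Con 1 (adjusted p = 0.0947). The vinclozolin lineage moved likewise, with 7.72, 7.30 and 7.14 in St-Vin and 7.98 and 7.90 in NSt-Vin (-0.55 ± 0.14, adjusted p = 0.998). Most other leptomeningeal markers had the opposite sign without a call. Of the 17 in the list 11 were higher in St-Con, with a median of 0.10. Only Igfbp6 was called (5.88%, against 0.490% of all probe sets with 1 symbol). Aldh1a2, which makes retinoic acid, was at 6.67, 6.40 and 6.40 in St-Con and 5.88, 5.99 and 5.97 in NSt-Con (0.54, adjusted p = 0.25), and Ptgds, the prostaglandin D synthase of meninges, at 9.99, 10.48 and 9.49 in St-Con and 9.71, 8.71 and 8.72 in NSt-Con (0.94, adjusted p = 0.302).

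Cspg4, the NG2 proteoglycan that covers oligodendrocyte precursors and pericytes, was lower in St-Con, at 6.57, 6.74 and 6.70, against 7.07, 7.01 and 7.08 in NSt-Con. The NSt-Con pools lay close to each other, above every other motor cortex array (-0.38 ± 0.06, adjusted p = 0.0237). Of the 9 precursor markers 6 were lower and 3 higher, with a median of -0.08. Only Cspg4 was called (11.1%, against 0.490% of all probe sets with 1 symbol). Below an unadjusted p of 0.05 were 33.3% of the list, against 17.1% of all probe sets with 1 symbol. Pdgfra, the growth factor receptor that defines these precursors, was at 8.05, 7.95 and 7.90 in St-Con and 8.06, 8.02 and 8.05 in NSt-Con (-0.08, adjusted p = 0.565), so the groups overlapped for it. Neu4, a sialidase, was at -0.19 (adjusted p = 0.16) and Gpr17, a receptor of maturing precursors, at -0.16 (adjusted p = 0.404). On the other side were C1ql1, a secreted synaptic organiser, at 0.16 (adjusted p = 0.23, unadjusted p = 0.034), Bcan, the proteoglycan brevican, at 0.11 (adjusted p = 0.539) and Cacng4, an AMPA receptor auxiliary subunit, at 0.00. The 17 oligodendrocyte and myelin probe sets had a median of 0.01, with 9 higher, 8 lower and 0 called by limma (1, or 5.88%, below an unadjusted p of 0.05).

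The other named genes that fell have unrelated known roles. Fam133b was at 6.49, 6.83 and 6.93 in St-Con and 7.27, 7.54 and 7.28 in NSt-Con (-0.61 ± 0.11, adjusted p = 0.0432). Larp7, the protein that holds the 7SK RNA complex together and so restrains transcriptional elongation, was at 7.06, 6.69 and 6.84 in St-Con and 7.37, 7.37 and 7.18 in NSt-Con (-0.44 ± 0.09, adjusted p = 0.0498). Coq10b, which binds coenzyme Q in the respiratory chain, was at 7.99, 8.14 and 8.16 in St-Con and 8.46, 8.64 and 8.40 in NSt-Con (-0.40 ± 0.08, adjusted p = 0.0452). The groups were separate for all 3, and Larp7 was called in only 1 of the 11 fits lacking an array. Klk1c10, a tissue kallikrein, fell by 0.43 ± 0.09 (adjusted p = 0.0498), Mettl27, a methyltransferase-like protein, by 0.39 ± 0.05 (adjusted p = 0.022), and 1700013G24Rikl by 0.41 ± 0.07 (adjusted p = 0.0404). Mettl27 had the tightest groups of these, at 6.24, 6.36 and 6.29 in St-Con and 6.70, 6.68 and 6.68 in NSt-Con, and had one of the 3 smallest p values in the vinclozolin lineage as well (-0.26 ± 0.06, adjusted p = 0.998). Rwdd2a, named because it was called without NSt-Con 1 (-0.41, adjusted p = 0.0363), was at -0.34 with all arrays (adjusted p = 0.0452). Dmap1, a subunit of chromatin complexes that binds the DNA methyltransferase DNMT1, fell by 0.33 ± 0.05 (adjusted p = 0.0289), with 6.39, 6.50 and 6.43 in St-Con and 6.80, 6.81 and 6.71 in NSt-Con. Lrp1b, a large endocytic receptor of the LDL receptor family, was chosen after its values were seen because both of its called probe sets moved alike, by -0.38 (adjusted p = 0.0432) and -0.34 (adjusted p = 0.0237).

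**Figure D2:**
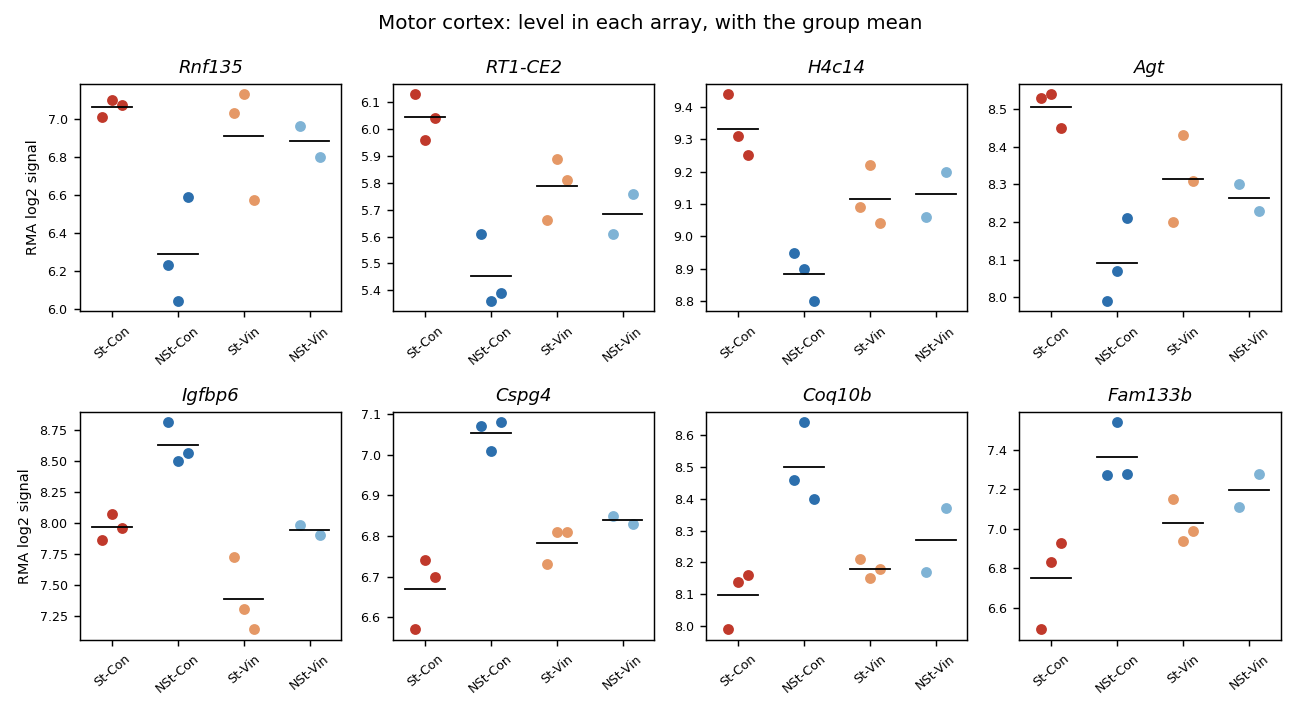
RMA log2 signals of 8 named genes in the 11 motor cortex arrays, with a point for each array and a line at the group mean. St-Con and NSt-Con do not overlap in any of the 8, and in the upper row the St-Vin and NSt-Vin means lie between the means of the 2 control-lineage groups; each vertical axis has its own range.

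Olfactory receptor genes were called in both directions and gave more called members than any other list. Of 1127 olfactory receptor probe sets, 11 were called (0.976%, against 0.490% of all probe sets with 1 symbol), 5 higher and 6 lower, with a list median of -0.01. Or6c219 had the largest positive difference among called genes with 1 symbol. It was at 6.26, 5.89 and 6.09 in St-Con and 5.23, 5.33 and 5.27 in NSt-Con, while the vinclozolin-lineage arrays were all near St-Con, at 5.96, 5.85 and 6.01 in St-Vin and 5.94 and 6.11 in NSt-Vin. The difference was 0.80 ± 0.09 (adjusted p = 0.0181) and it was called in 9 of 11 fits lacking an array. Or14a257b (0.42), Or6d14 (0.33), Or13a26 (0.32) and the vomeronasal receptor Vom2r7 (0.34) were higher too. Olr5 was the member with the most negative difference, at 7.23, 7.56 and 7.34 in St-Con and 7.97, 8.22 and 7.88 in NSt-Con (-0.65 ± 0.13, adjusted p = 0.0498). Or4k50 (-0.42), Or2d4 (-0.39), Or51b4 (-0.39) and Or2t6 (-0.32) were lower as well. Olfactory receptors serve odour detection in the nose and gave weak signals here: the median member ranked above only 33.1% of probe sets, and the called ones lay between the 11.4th and 66.7th percentile.

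No member of the list of glucocorticoid response genes was called. Among 25 probe sets limma called 0, where 0.490% of all probe sets with 1 symbol were called, 3 were below an unadjusted p of 0.05 (2 higher and 1 lower), 13 were higher, and the median was 0.01. Fkbp5, the co-chaperone that dampens the glucocorticoid receptor and a standard readout of its activity, was at 8.19, 7.86 and 7.94 in St-Con and 7.69, 7.48 and 7.69 in NSt-Con. The groups did not overlap, but the difference of 0.38 ± 0.09 missed the threshold (adjusted p = 0.0717), and in the vinclozolin lineage it was 0.02, with 7.85, 7.95 and 7.73 in St-Vin and 7.86 and 7.78 in NSt-Vin. Tsc22d3, the glucocorticoid-induced leucine zipper, was at 0.13 ± 0.05 (adjusted p = 0.189) and Lcn2, lipocalin, at -0.25 (adjusted p = 0.0646). The receptors themselves overlapped between groups. Nr3c1, the glucocorticoid receptor, was at 9.31, 9.48 and 9.53 in St-Con and 9.49, 9.56 and 9.52 in NSt-Con (-0.08 ± 0.06, adjusted p = 0.522), and Nr3c2, the mineralocorticoid receptor, differed by 0.04 ± 0.06 (adjusted p = 0.756). Crh, the releasing hormone made by some cortical interneurons, was at 0.12 ± 0.06 (adjusted p = 0.292), Sgk1 at -0.13 ± 0.10 (adjusted p = 0.517) and Per1 at -0.02 ± 0.09 (adjusted p = 0.948).

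Immediate early genes, whose transcription follows neuronal firing within minutes to hours, were more often lower than higher in St-Con, with 0 called by limma. Of 24 probe sets 17 were lower, with a median of -0.06, where 53.4% of all probe sets with 1 symbol were lower. Below an unadjusted p of 0.05 there were 5 (20.8%), all lower, a share near the 17.1% of all probe sets with 1 symbol. Nr4a1, an orphan nuclear receptor, had the smallest p, at 8.88, 9.09 and 8.67 in St-Con and 9.38, 9.11 and 9.55 in NSt-Con (-0.47, adjusted p = 0.128). Fos was at 6.79, 7.35 and 7.33 in St-Con and 7.08, 7.23 and 7.60 in NSt-Con, so its groups overlapped (-0.15 ± 0.16, adjusted p = 0.681). Npas4, switched on by calcium entry, differed by -0.07 ± 0.16 (adjusted p = 0.854) and Bdnf, a neurotrophin, by -0.03 ± 0.06 (adjusted p = 0.816). Leaving out 1 array moved the list median between -0.10 and -0.01.

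Choroid plexus genes had the list median farthest from 0. All 19 choroid plexus probe sets were lower in St-Con, with a median of -0.53, 13 of them (68.4%) below an unadjusted p of 0.05, against 17.1% of all probe sets with 1 symbol, and 1 called (5.26%, against 0.490%). In 15 of them the groups did not overlap, as in 23.8% of all probe sets with 1 symbol. The same list had a St-Con minus NSt-Con median of -0.82 in CA1, -0.53 in CA3 and -0.04 in the amygdala, so a lower median in St-Con was not seen in motor cortex alone. Ttr, the transthyretin secreted by the choroid plexus epithelium, was at 5.98, 5.21 and 4.58 in St-Con and 15.02, 8.68 and 11.12 in NSt-Con, with an SD of 0.70 in St-Con and 3.20 in NSt-Con, and its difference of -6.35 ± 1.58 missed the threshold (adjusted p = 0.0764). NSt-Con 1 was the highest of the 6 arrays in 18 of the 19: Kcnj13, a potassium channel of this epithelium, read 9.90 there against 6.34 in both other NSt-Con arrays and 5.57, 5.56 and 5.37 in St-Con. The imbalance was smaller but present without that array, with 18 of 19 lower, a median of -0.27 and 16 whose groups did not overlap, as did 36.3% of all probe sets with 1 symbol with that array left out. The list mean lay between 5.95 and 6.07 in St-Con and between 6.51 and 6.59 in NSt-Con 2 and 3, with NSt-Con 1 at 8.22. Lmx1a, a homeodomain factor of choroid plexus and roof plate, was the called member, at 5.62, 5.74 and 5.69 in St-Con and 5.98, 5.98 and 5.97 in NSt-Con (-0.29 ± 0.06, adjusted p = 0.0463), and the difference was as large without NSt-Con 1 (-0.29, adjusted p = 0.092). With the choroid plexus list mean as a covariate 6 probe sets were called, 3 of them among the 174; the part of choroid plexus tissue in the other calls was not tested further.

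**Figure D3:**
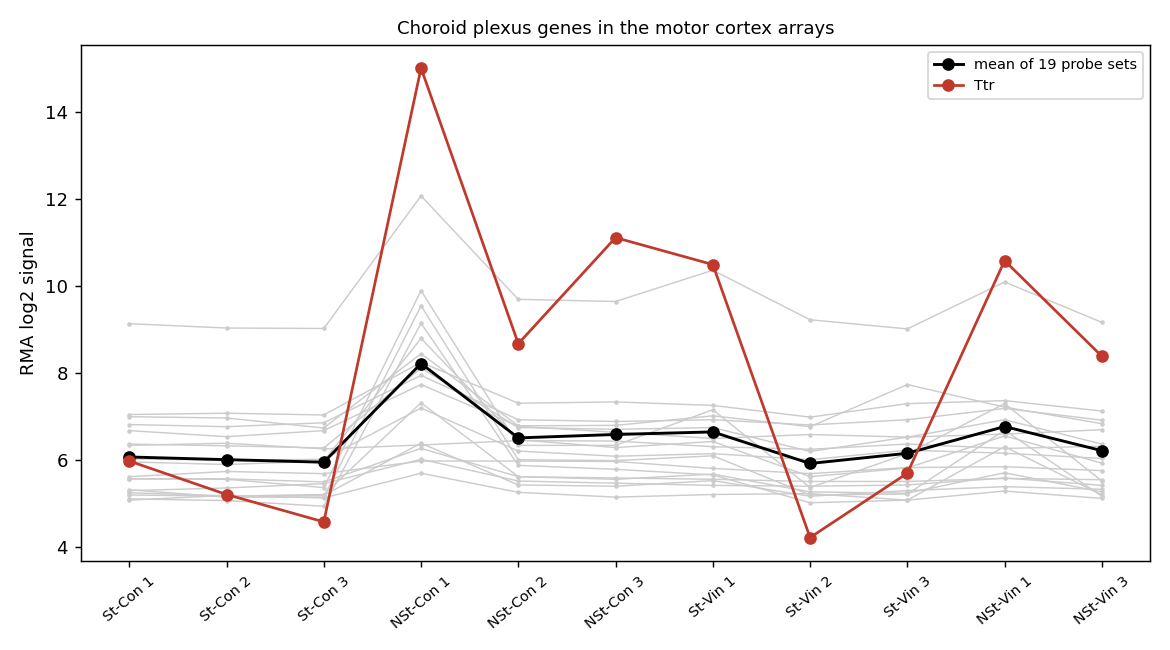
RMA log2 signals of 19 choroid plexus probe sets in each motor cortex array, with Ttr in red, the mean of all 19 in black and the other members in grey. NSt-Con 1 is the highest array by far, and all St-Con arrays have a lower mean than NSt-Con 2 and 3.

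The remaining lists of cell types and functions had few or no calls and small medians. Over all probe sets with 1 symbol 45.9% were higher, and 17.1% were below an unadjusted p of 0.05. Synaptic vesicle genes leaned higher, 19 of 24 with a median of 0.07. Stx1a, a SNARE protein of vesicle release, was at 9.98, 9.98 and 9.96 in St-Con and 9.82, 9.71 and 9.88 in NSt-Con (0.17, adjusted p = 0.176), and Nrxn3, a presynaptic adhesion molecule, was at -0.18 (adjusted p = 0.093). Ribosomal protein probe sets leaned higher in 170 of 258, with a median of 0.04. They stand for only 72 genes, so these counts are not of independent members. Below an unadjusted p of 0.05 were 13.6% of them, under the 17.1% of all probe sets with 1 symbol, with 31 higher and 4 lower. Inhibitory neuron markers leaned lower in 15 of 19 (median -0.06), as did cholesterol synthesis genes in 13 of 17 (median -0.08, or -0.01 without NSt-Con 1). Potassium channels (median 0.05, or -0.01 without NSt-Con 1) and genes for GABA receptors (median 0.05) and glutamate receptors (median -0.04) stayed close to the -0.01 of all probe sets with 1 symbol. Microglial markers split evenly, 6 higher and 6 lower. Genes of DNA methylation and histone deacetylation were lower in 12 of 20, with 0 called by limma. Below an unadjusted p of 0.05 were 25% of them, 1 higher and 4 lower, against 17.1% of all probe sets with 1 symbol. The groups were separate in 1 higher and 8 lower members, a property of 23.8% of all probe sets with 1 symbol. Hdac1, a histone deacetylase, was at 7.47, 7.26 and 7.34 in St-Con and 7.69, 7.75 and 7.59 in NSt-Con (-0.32, adjusted p = 0.0856). In the lists of synaptic vesicles, ribosomal proteins, inhibitory neurons, cholesterol synthesis and microglia limma called 0, and outside the ribosomal list 5, 2, 1 and 2 members in that order were below an unadjusted p of 0.05. The 13 lists not yet mentioned, from ependyma and endothelium to clock, chaperone and respiratory chain genes, also had 0 called by limma, at most 8 members each below an unadjusted p of 0.05, and medians from -0.05 to 0.07. Actb, a cytoskeletal gene, differed by 0.12 ± 0.09 (adjusted p = 0.516), and the 16 Gapdh probe sets by 0.01 to 0.08, with 0 called and a smallest adjusted p of 0.561.

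**Figure D4:**
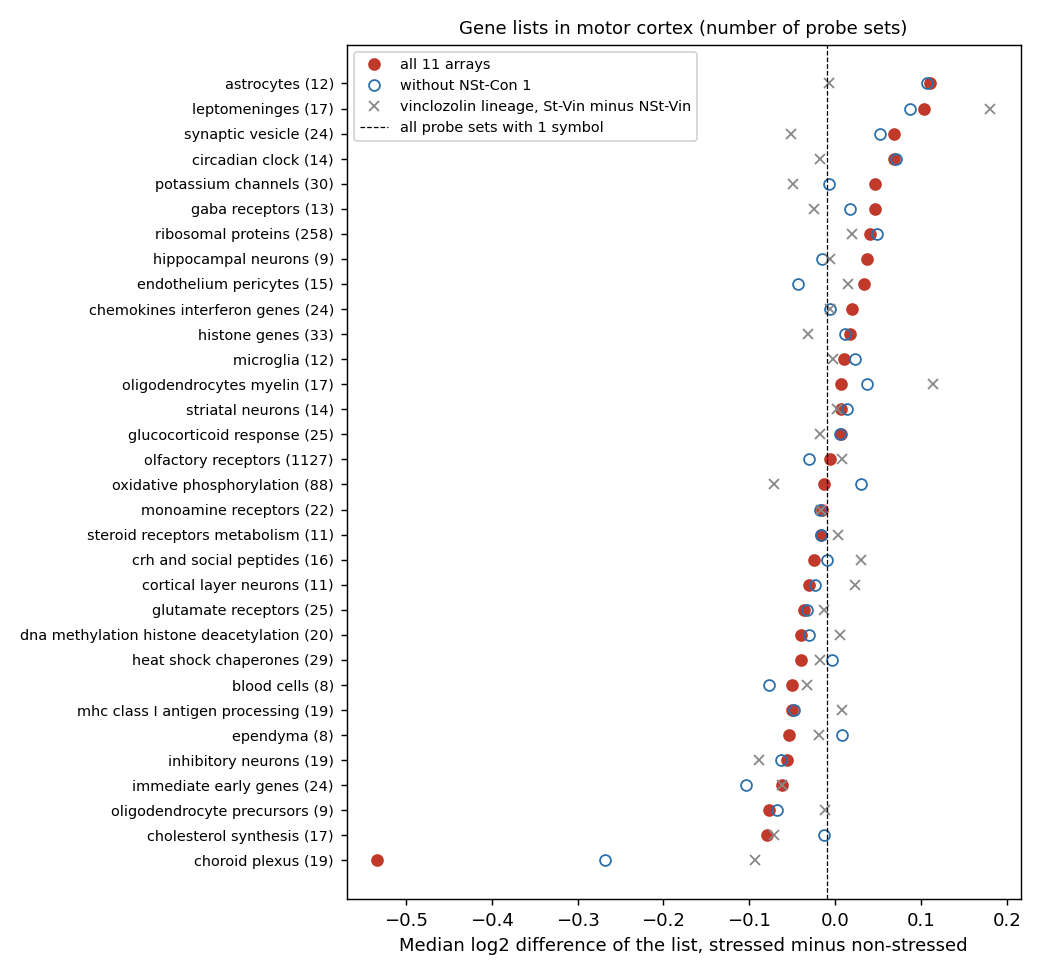
Median log2 difference of each gene list in motor cortex, with the number of probe sets in brackets: St-Con minus NSt-Con over all 11 arrays (red), the same without NSt-Con 1 (open blue) and St-Vin minus NSt-Vin (cross). Choroid plexus stands far below the other lists, whose St-Con medians lie between -0.08 and 0.11, around the dashed line at the median of all probe sets with 1 symbol.

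The same stress comparison in the vinclozolin lineage gave no call. For St-Vin minus NSt-Vin limma called 0 of 27342 probe sets (0.0%), with 856 (3.13%) below an unadjusted p of 0.05, and the interaction of stress and lineage also gave 0 (0.0%), with 1534 (5.61%) unadjusted. The smallest interaction p values among named genes were those of Or6c219 (0.89 ± 0.13, adjusted p = 0.49), Ly6i (0.46 ± 0.08, adjusted p = 0.524) and Dmap1 (-0.40 ± 0.08, adjusted p = 0.756), so no gene was shown to respond differently in the 2 lineages. Of the 76 probe sets higher in St-Con, 57 were also higher in St-Vin than in NSt-Vin, and of the 98 lower in St-Con 85 were lower in St-Vin, where 46.2% of all probe sets were higher. These differences were smaller: the median along the St-Con direction was 0.09 in the vinclozolin lineage against 0.37 in the control lineage. The rats of the 2 lineages were cage mates, and NSt-Vin counted 2 arrays. Beyond the called genes, Abca8a, a lipid transporter, had one of the 3 smallest p values in that lineage, at 8.29, 8.17 and 8.10 in St-Vin and 7.90 and 7.87 in NSt-Vin (0.30 ± 0.07, adjusted p = 0.998), with -0.12 ± 0.06 in the control lineage. Or4k77, an olfactory receptor gene, was the other, at -0.34 ± 0.08 (adjusted p = 0.998), with -0.02 ± 0.07 in the control lineage.

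Scan day could be followed only through the vinclozolin lineage. NSt-Vin 3 was scanned on day 2 with the stressed arrays and NSt-Vin 1 on day 1. Their difference, day 2 minus day 1, was above 0 in 50.9% of all probe sets. It had the sign of the St-Con difference in 78 of the 174 called probe sets (44.8%), with a median of -0.01 along the St-Con direction. Klk1c10 was among those that moved the other way, with 6.36 in NSt-Vin 3 and 6.01 in NSt-Vin 1. Against NSt-Vin 3 alone, on the same scan day, the St-Vin arrays had the sign of the St-Con difference in 137 of 174 (78.7%), with a median of 0.09. Over all probe sets 45.7% were higher in St-Vin there. NSt-Con was the lowest or the highest of the 4 group means in all 174, and St-Con in 138. The 174 were chosen for their St-Con minus NSt-Con difference, which favours extreme means in both groups. The St-Vin mean was on the St-Con side of the midpoint between the control-lineage groups in 152 of them and the NSt-Vin mean in 100. The shares over all probe sets were not computed for the counts of extreme means and of midpoints.

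The other 3 areas were punched from the same rats, and there the St-Con and NSt-Con arrays used shared a scan day. The stress difference gave 0 calls by limma in the amygdala, CA1 and CA3 (0.0% each), with 847, 889 and 975 probe sets at an unadjusted p under 0.05. The probe sets called in motor cortex had the same sign in 80 of 174 in amygdala (46.0%), 92 in CA1 (52.9%) and 87 in CA3 (50%), and their medians along the motor cortex direction were -0.01, 0.01 and 0.00. Over all probe sets 45.1%, 46.4% and 48.6% were higher in St-Con in these areas. H4c14 differed by 0.13 in amygdala, 0.17 in CA1 and 0.02 in CA3, and Agt by 0.07, -0.25 and 0.04. A direct test of the motor cortex difference minus that of another area, with the animal pool as a random block, called 45 probe sets against the amygdala (0.165%), 13 against CA1 (0.0475%) and 26 against CA3 (0.0951%). Igfbp6 was at -0.66 in motor cortex, against -0.05 in amygdala, 0.23 in CA1 and 0.14 in CA3, and its difference from both hippocampal areas passed. Or2d4 differed from the amygdala and CA3, and Or6c219 from the amygdala, where it was at -0.36. These named genes were chosen for their motor cortex difference, which also enters this test.

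**Figure D5:**
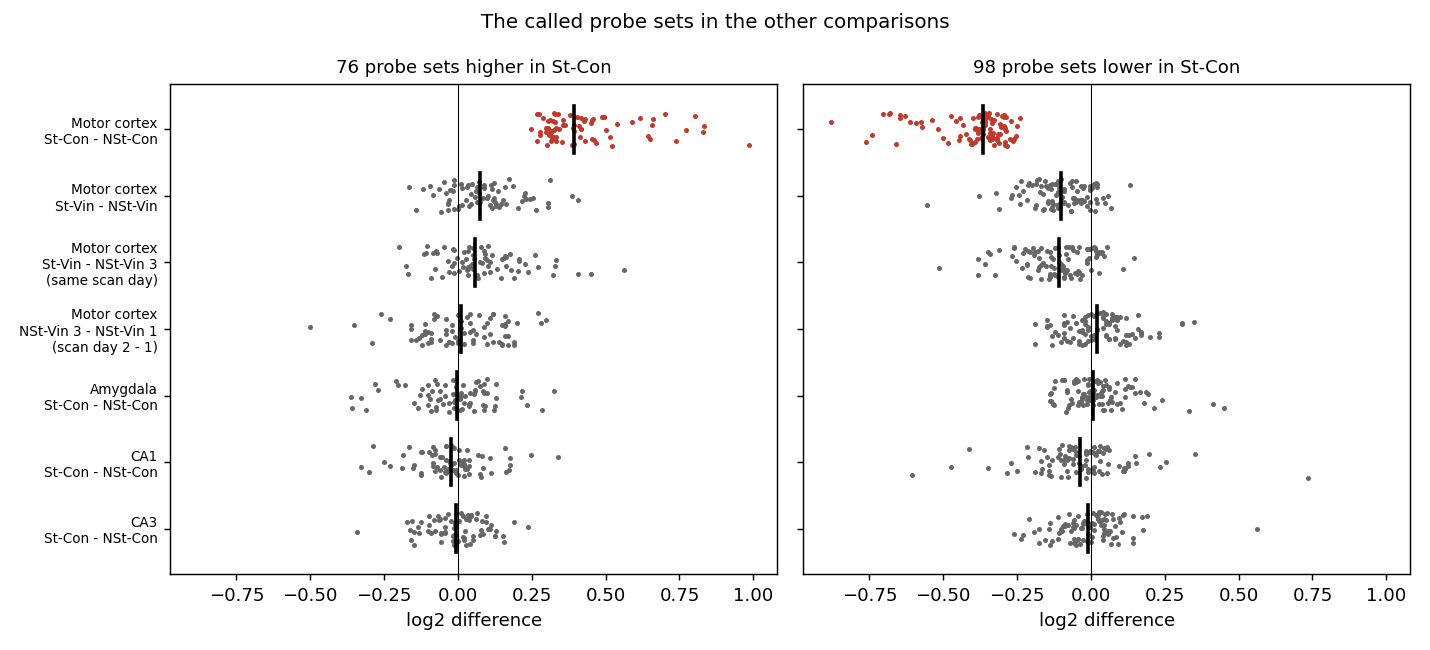
Log2 differences of the 76 probe sets higher (left) and the 98 lower (right) in St-Con motor cortex, in the comparison that chose them (red) and in 6 others (grey), with black bars at the medians. In the vinclozolin lineage the medians lie on the side of the control-lineage difference at 0.07 and -0.10, while between scan days and in the other areas they lie between -0.04 and 0.02.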

How the data were processed

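Values are RMA log2 signals of 1-colour Affymetrix whole-transcript arrays, deposited by the authors; per the submitters' processing notes Partek and RMA were used, and their versions are not given in the sources used here. Among the 27342 probe sets the platform annotation gives 15097 1 gene symbol, 323 several and 11922 none, and only those with 1 were named; 15067 were matched to RefSeq GRCr8 by gene number. The array NSt-Vin 2 equals the mean of NSt-Vin 1 and 3 on all probe sets (tolerance 0.0051), as 1 CA1 St-Con array equals the mean of the other two, and both were left out, leaving 11 motor cortex arrays. The 4 groups of an area were fitted together in R 4.3.3 with limma 3.58.1 (functions lmFit and eBayes; statmod 1.5.0 for blocks), sharing one estimate of the spread; p-values are two-sided and adjusted by Benjamini-Hochberg over all probe sets. SE is from the fit. A fold is 2 to the power of the log2 difference.

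The samples, the 32 gene lists and the naming rule were chosen with earlier results of these data known. The rule names the 12 highest and 12 lowest differences among called probe sets with 1 symbol and separate groups, called list members up to 6 a list, genes called without NSt-Con 1, the 3 smallest p of the interaction and of the vinclozolin lineage, control genes, and defining markers. Lists were described by counts and medians. The fit was tested on simulated data. Alternatives were array omissions, scan day, replicate or dyad blocks, a choroid plexus covariate, other scaling, other eBayes settings and a level filter. Precision is limited by the number of arrays, which have no read depth.

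Replicate numbers do not pair St-Con with NSt-Con, which hold different dyad groups.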

Additional observations from a re-analysis of the deposited data

Results flagged for a closer look

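For 3 named genes the stress difference of the control lineage differed between motor cortex and another area in limma's test of that difference over all areas, with Benjamini-Hochberg adjustment. Or6c219, an olfactory receptor gene, differed by 1.16 between motor cortex and amygdala (0.80 and -0.36, adjusted p = 0.0345). Igfbp6, an inhibitor of insulin-like growth factor II, differed by -0.8979 between motor cortex and CA1 (-0.66 and 0.23, adjusted p = 0.0306) and by -0.8033 between motor cortex and CA3 (-0.66 and 0.14, adjusted p = 0.0415). Or2d4, another olfactory receptor gene, differed by -0.4133 between motor cortex and amygdala (-0.39 and 0.02, adjusted p = 0.0324) and by -0.50 between motor cortex and CA3 (-0.39 and 0.11, adjusted p = 0.00756). Motor cortex alone had its St-Con and NSt-Con arrays on different scan days, so for these genes area and scan day cannot be told apart.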

How the results depend on the processing

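None of the 174 called probe sets changed direction in any of 21 alternatives, counting in the level filter only those that passed it. The groups did not overlap in any of the 174, so leaving out 1 array could not have changed a direction. The fits with all 12 arrays, only the 6, other eBayes settings, the level filter or the replicate block give the same differences as reported. No direction could change in those fits either. The count of 174 depended on the processing. It was 1027 with all 12 arrays, 390 after quantile normalization (216 higher and 174 lower, 55.4% higher against 43.7% as reported), 385 with trend and robust eBayes settings, 93 with only the 6 arrays, 50 without probe sets below the 30th percentile, 6 with the choroid plexus covariate and 0 with scan day as a block. Leaving out 1 array gave 0 to 300: 0 without NSt-Con 3 or St-Con 1, 4 without NSt-Con 2, 13 without St-Con 2, 19 without NSt-Con 1 or St-Con 3, 52 without NSt-Vin 1 or 3 and 300 without St-Vin 3. The replicate block gave 247, with 148 of the 174 among them, and a dyad group block 138. Same-numbered St-Con and NSt-Con arrays deviated together in 2 of 3 pairs (correlations 0.132, -0.0558 and 0.185). By design these arrays hold different dyad groups, so they share only a number whatever these correlations.

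Of the 24 genes with the largest differences, 14 were called with only the 6 arrays, 8 with the level filter, 1 with the covariate, 0 with scan day as a block and 0 to 24 without 1 array. The 17 called list members became 87 with all 12 arrays, 43 with trend and robust settings, 39 after quantile normalization, 8 with the level filter, 1 with the covariate, 0 with scan day as a block and 0 to 30 without 1 array. The interaction gave 1 call with the covariate and 0 otherwise (0 to 0 without 1 array), and St-Vin minus NSt-Vin gave 0 throughout. Against amygdala and CA3 the fit with no block gave 29 and 17 calls in place of 45 and 26. In CA3 leaving out 1 array gave 0 to 1 calls, the 1 without NSt-Con 2, and 0 to 0 in amygdala and CA1. Where an alternative ended a call, the cause was not tested. Scan day and stress cannot be told apart in the control lineage, and groups of 3 pools limit the precision.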
